A study of Drosophila melanogaster with 12 samples.

Results

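The genes compared here are those whose transcript level stood on one side of every control library in all 8 libraries of wing discs with RNAi, with and without Xrp1 RNAi. A gene was a member when its 8 RNAi values were all above, or all below, its 4 control values, among genes with a mean of at least 10 normalized counts over the 12 libraries. The rule gave 763 members of 10179 genes tested (7.50%), 419 above the controls (4.12%) and 344 below (3.38%). The study asks how far the transcript response to spliceosome dysfunction depends on Xrp1, and these members are the transcripts that lay beyond control in both RNAi genotypes.

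Total RNA depleted of ribosomal RNA was sequenced from wing imaginal discs of third-instar Drosophila melanogaster larvae at 7 days after egg laying, with 150 discs pooled per library and 4 libraries, called biological replicates, in each of 3 groups. Control discs carried nub-Gal4 and UAS-mRFP (labelled nub>mRFP), a driver of the nubbin domain and a red fluorescent reporter. The other groups carried the same driver and reporter with UAS-ecd-RNAi (nub>mRFP; ecd-RNAi) or with UAS-ecd-RNAi and xrp1-RNAi (nub>mRFP; ecd-RNAi, Xrp1-RNAi), called ecd RNAi and ecd plus Xrp1 RNAi below. The control is not labelled with any RNAi transgene and no group had Xrp1 RNAi alone, so ecd RNAi, the presence of an RNAi transgene and genetic background cannot be told apart in what the 8 RNAi libraries share. In differences between the RNAi groups, Xrp1 RNAi, the presence of an added RNAi transgene and genetic background cannot be told apart either. The driver acts in the wing pouch while whole discs were sequenced, and in such bulk samples fewer cells of a type and less RNA per cell cannot be told apart.

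Ecdysoneless, the product of ecd, works together with Prp8, the scaffold at the catalytic heart of the spliceosome. The spliceosome removes introns through small nuclear ribonucleoprotein particles, each built on a small nuclear RNA, and U5 joins U4 and U6 in the tri-snRNP before catalysis. Xrp1 is a bZIP transcription factor, known in imaginal discs for driving the loser state of cells with ribosomal protein mutations and for pairing with Irbp18. Stressed disc cells are also known for JNK signalling, for secretion of the cytokine Upd3, which activates JAK/STAT, and for release of the hormone Ilp8, which delays metamorphosis.

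The targeted genes were examined first. The ecd transcript stood at 1654, 1494, 1421 and 1420.3 normalized counts in control libraries, 1982, 1687, 1423 and 1521 under ecd RNAi and 1825, 1766, 1696 and 1699 under ecd plus Xrp1 RNAi. Its libraries labelled ecd RNAi overlapped the controls (log2 change ± SE of 0.13 ± 0.09, adjusted p = 0.251 by limma), so the label cannot be checked from them, and every direction given for the RNAi groups rests on it. Xrp1 stood at 4709.5, 4511, 4949 and 5078 normalized counts in control libraries, 22964, 20019, 21561 and 18985 under ecd RNAi and 4447, 4474, 5365 and 6048 under ecd plus Xrp1 RNAi. It rose with ecd RNAi (log2 change 2.12 ± 0.10, adjusted p = 3.52e-09 by limma) and overlapped the controls with ecd plus Xrp1 RNAi, so it is not a member, and neither are its partner Irbp18, the hormone Ilp8, the capsid-forming Arc1 or p53. Ilp8 and Arc1 had the changes of 8.04 ± 0.38 and 7.46 ± 0.14 with ecd RNAi, and in ecd plus Xrp1 RNAi each had at least 1 library within the control range.

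Each control library held 26.5 to 29.0 M normalized counts, each ecd RNAi library 32.4 to 35.4 M and each ecd plus Xrp1 RNAi library 29.1 to 32.3 M. Rows that are not genes, such as transposable elements, took 0.452% to 0.515%, 5.65% to 7.40% and 0.546% to 0.645% of the signal in these groups. Summed fat body markers ranged from 1315 to 76585 in control, from 1218 to 28767 under ecd RNAi and from 1799 to 2959 under ecd plus Xrp1 RNAi, and replicates 3 and 4 of both control and ecd RNAi form the fat-body-rich libraries. None of the 7 fat body markers was a member and 1 of 7 was called, as lower. Without those 4 libraries the same rule, which then compares 6 values with 2, gave 946 genes above and 1269 below, and 756 of the 763 members were among them. The wing pouch markers, nub among them, summed to 29877 to 33670, 23487 to 30037 and 31266 to 36886. Adult muscle precursor markers summed to 10408 to 11143, 7822 to 8260 and 10583 to 12911, and notum markers to 3585 to 4347, 2382 to 3405 and 4196 to 4781, so for both ecd RNAi lay below the controls without overlap. The part of such shifts in the members was not tested.

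The shared changes were small for most members. Pairs of changes give ecd RNAi first and ecd plus Xrp1 RNAi second, each a log2 change against control ± SE. In each group against control, the median log2 change of the 419 genes above was 0.82 with ecd RNAi and 0.36 with ecd plus Xrp1 RNAi, which are folds of 1.77 and 1.28. The 344 genes below had medians of -0.72 and -0.34, and all 10179 genes -0.04 and 0.00. A change of at least 2-fold in each RNAi group was present in 61 genes above and 40 below. Of the members, 723 had a mean of at least 10 in each group and 40 had a lower mean in some group. In 8 of these the mean was under 10 both in control and under ecd plus Xrp1 RNAi, CG8620 and Lcp65Ag2 among them. They entered only through ecd RNAi, and their difference between the RNAi groups is given as a description. In all, 14 members had a mean of at least 10 in 1 group only, and for unc80 that group was control.

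Calls by limma were set beside these counts as a description, since the rule used the same contrasts. With ecd RNAi against control 4867 genes (47.8%) were called, 22.4% higher and 25.4% lower, and with ecd plus Xrp1 RNAi 447 (4.39%). Those for ecd plus Xrp1 RNAi held 288 members, 163 above beside 2.29% of all genes called higher and 125 below beside 2.10% called lower, and 159 other genes. Among members given below with changes or counts, upd3, Atf3, Gadd45 and sens were not called there (adjusted p = 0.0825, 0.0736, 0.113 and 0.197 by limma). Nor were klhl10, CG17036, CG15905, CG6055, CG11899, GstE11, Sec61alpha, ND-49, Prp31, fand, tsu and Nop56. The same held for CG8620, Lcp65Ag2, 18SrRNA:CR41548, Irbp, Dad, salm, en, chrb, ImpE2, Spn100A and Spn43Aa. Members named below without changes or counts that were not called there include Ptp61F, zfh2, scaf, dally, grp, Orc1 and Cbs. Genes called in the same direction in each RNAi group numbered 299 (2.94%), 1.70% higher and 1.24% lower, and 283 of them were members. In the authors' deposited table of comparisons 618 genes (6.07%) passed in the same direction in both, 464 of them members. The mean of both RNAi groups against control called 3375 genes (33.2%), 1713 higher (16.8%) and 1662 lower (16.3%), and 2631 were not members. Scaling all libraries to equal sums moved that split to 899 higher and 3662 lower and the members to 149 above and 1381 below, with a median shift of all genes of -0.20 in place of -0.03 on the log2 scale. Of the 763 members, 493 remained members with that scaling and 586 with quantile normalization, so membership of the others depends on the scaling.

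Proteasome subunits, which degrade ubiquitin-tagged proteins, differed between the pooled count and the member count. Of 32 measured, 29 were lower by the pooled contrast (beside 16.3% of all genes). With ecd RNAi 31 fell (beside 25.4%), with ecd plus Xrp1 RNAi 0 (beside 2.10%), and none was a member (beside 3.38% below). In a list of this size the counts of 0 and none are near those shares. Their median log2 changes were -0.67 and 0.04, and -0.88 and -0.10 with libraries scaled to equal sums, so the sign of the second depends on the scaling.

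Whether a shared change had the same size with and without Xrp1 RNAi was described by the difference between the RNAi groups. The 8 RNAi values it compares also entered the rule, so its counts over the members are given as a description. It was called in 474 of 763 members (62.1%) and in 4810 of all 10179 genes (47.3%). Of the genes above, 247 were lower with ecd plus Xrp1 RNAi than with ecd RNAi, 10 were higher and 162 were not called. Of the genes below, 204 were higher with ecd plus Xrp1 RNAi, 13 were lower and 127 were not called. The median difference was -0.39 for the genes above, 0.32 for those below and -0.01 for all genes, on the log2 scale. The change was smaller with ecd plus Xrp1 RNAi in 371 of 419 and in 289 of 344, against 7030 of all 10179 genes.

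**Figure D1:**
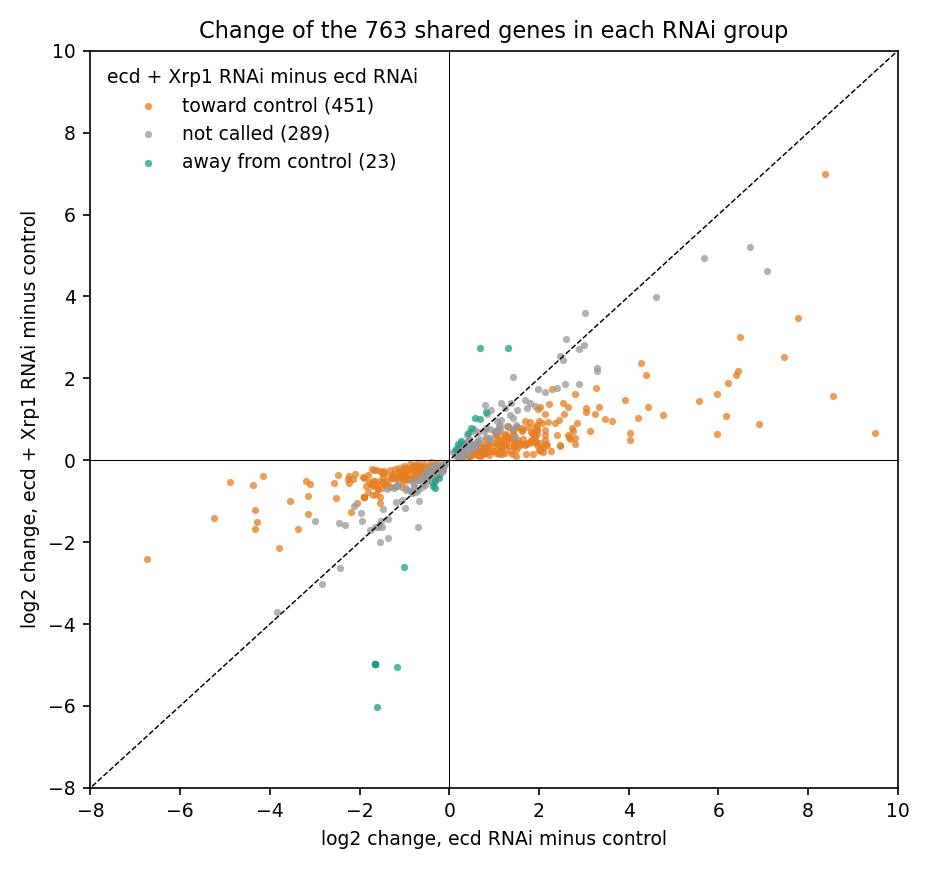
Log2 change against control of the 763 members, with ecd RNAi on the horizontal axis and with ecd plus Xrp1 RNAi on the vertical axis. Each point is a gene, coloured by whether limma called the difference between the RNAi groups toward control (451 genes), away from control (23) or not at all (289), and the dashed line marks equal change. Both axes use the same controls, and the rule leaves the upper left and lower right corners empty.

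A like-sized class was taken as members whose difference between the RNAi groups was under 0.25 in size on the log2 scale with an unadjusted p over 0.05. It held 206 members, 109 above and 97 below, and since it was chosen on that difference no test is given for it. CCHa2-R (chromosome 2R, 6050949 to 6068680, genome build BDGP6), the receptor of the gut and fat body peptide CCHamide-2, stood at 32.5, 44.98, 45.8 and 67.4 normalized counts in control libraries, 133, 186, 269 and 176 under ecd RNAi and 146, 152, 146 and 185 under ecd plus Xrp1 RNAi. The lowest RNAi library lay well above the highest control, and the RNAi groups overlapped each other. Its log2 changes were 1.98 ± 0.24 and 1.74 ± 0.24, with a difference of -0.24 ± 0.24 (SE, n = 4 per group). The cell-surface gene side-VI (chromosome 3R, 10972381 to 11050175), of the immunoglobulin superfamily, stood at 52.8, 82.7, 58.97 and 78.1 normalized counts in control libraries, 211, 216, 242 and 203 under ecd RNAi and 165, 189.6, 147 and 270 under ecd plus Xrp1 RNAi. The RNAi groups overlapped again and their difference was -0.21 ± 0.20. The pseudogene CR43281 (chromosome 2R, 4780311 to 4783646) stood at 16.9, 29.4, 86.04 and 42.01 normalized counts in control libraries, 246, 306, 339 and 324 under ecd RNAi and 248, 251, 213 and 373 under ecd plus Xrp1 RNAi, with changes of 3.00 ± 0.37 and 2.82 ± 0.37. The controls spread over a wide range here while all RNAi libraries were higher. The long non-coding RNA lncRNA:CR40469 had changes of 1.37 ± 0.28 and 1.40 ± 0.28, CG44247 of 1.24 ± 0.23 and 1.27 ± 0.23, and klhl10, known as a testis ubiquitin ligase adaptor, of 1.15 ± 0.28 and 0.98 ± 0.28.

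Among the members below, CG31683 (chromosome 2L, 20447734 to 20449964) stood at 383, 349, 422 and 347 normalized counts in control libraries, 110.3, 20.04, 35.6 and 89.7 under ecd RNAi and 68.1, 39.3, 45.4 and 34.7 under ecd plus Xrp1 RNAi. No RNAi library reached 1 in 3 of the lowest control. Culd (chromosome 3L, 8352355 to 8356296), a transmembrane protein with CUB and LDLa domains known in photoreceptors, stood at 889.6, 769, 817 and 845 normalized counts in control libraries, 140.3, 85.04, 257 and 175 under ecd RNAi and 132, 169, 105 and 137 under ecd plus Xrp1 RNAi. The groups again overlapped each other well below the controls, with changes of -2.44 ± 0.26 and -2.62 ± 0.26 and a difference of -0.18 ± 0.26. CRMP (chromosome 3R, 5571108 to 5579189), a relative of the dihydropyrimidinases, stood at 496, 566, 637 and 559.5 normalized counts in control libraries, 286, 263, 379.5 and 365 under ecd RNAi and 322, 334, 299 and 367 under ecd plus Xrp1 RNAi, a difference between the RNAi groups of 0.04 ± 0.13. The others of this class were CG34207, CG17036 and the ribosomal pseudogene 28SrRNA-Psi:CR45851, with differences of 0.07 ± 0.20, 0.12 ± 0.23 and 0.25 ± 0.14.

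Further genes with large changes in both RNAi groups were picked after their values were seen. Josd, of the Josephin family of deubiquitinases, stood at 0, 6.86, 0 and 0 normalized counts in control libraries, 96.8, 111, 69.8 and 69.3 under ecd RNAi and 47, 34.04, 69.1 and 57.7 under ecd plus Xrp1 RNAi. The photoreceptor gene stops stood at 0, 2.86, 3.42 and 5.23 normalized counts in control libraries, 72.7, 86.7, 74.5 and 78.6 under ecd RNAi and 36.9, 47.3, 56.1 and 62.3 under ecd plus Xrp1 RNAi. Josd is listed at 0 in 3 control libraries and stops in 1, so no fold is given, and the difference between the RNAi groups was -0.74 ± 0.61 and -0.64 ± 0.48, neither called (adjusted p = 0.336 and 0.296 by limma). The gene unc80, part of the sodium leak channel complex, stood at 38.6, 65.8, 102 and 67.7 normalized counts in control libraries, 2.23, 2.58, 8.66 and 2.96 under ecd RNAi and 2.92, 4.07, 6.12 and 3.6 under ecd plus Xrp1 RNAi, and the sulfotransferase gene St3 at 80.8, 79.6, 80.96 and 73.5 normalized counts in control libraries, 15.2, 35.2, 28.7 and 22.9 under ecd RNAi and 30.3, 28.1, 16.2 and 26.4 under ecd plus Xrp1 RNAi. Both were lower in every RNAi library, and their differences between the RNAi groups were 0.14 ± 0.50 and 0.01 ± 0.28. The means of unc80 in the RNAi groups were 4.11 and 4.18, so it passed the filter only through control. Its difference compares low values and is given as a description. Receptor genes were not counted as a set. Of those picked, Octalpha2R for octopamine stood at 32.6, 42.2, 73.96 and 28.3 normalized counts in control libraries, 143, 215, 326 and 243 under ecd RNAi and 156, 108, 166 and 148 under ecd plus Xrp1 RNAi, and AstA-R1 for allatostatin A at 25.7, 34.4, 35.9 and 48.8 normalized counts in control libraries, 182, 266, 295 and 287 under ecd RNAi and 91.6, 90.4, 117 and 154 under ecd plus Xrp1 RNAi. The differences between the RNAi groups were -0.63 ± 0.30 (adjusted p = 0.102) and -1.19 ± 0.23 (adjusted p = 0.00109) by limma, so AstA-R1 was lower when Xrp1 RNAi was added and Octalpha2R was not called.

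**Figure D2:**
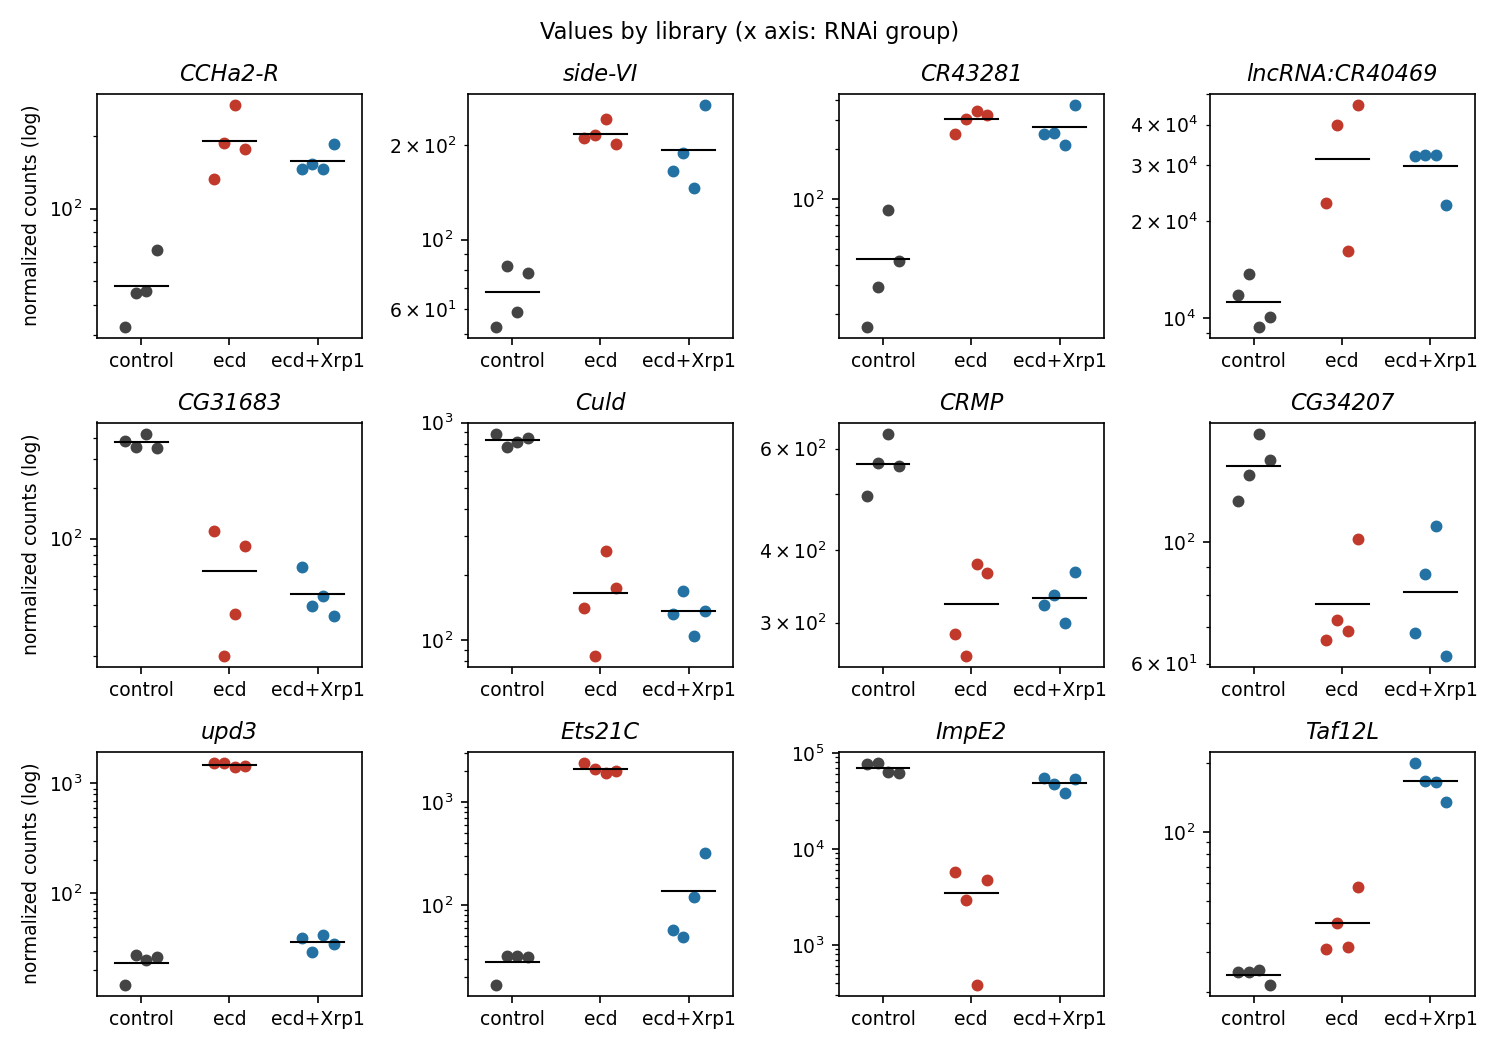
Normalized counts of 12 members in each library, on log vertical axes, with the 3 groups side by side. Points are libraries and lines are group means (n = 4); in the upper and middle rows the RNAi groups overlap each other apart from the controls, and in the lower row they are separate, with upd3 at 1404 to 1549 under ecd RNAi and 29.3 to 41.8 under ecd plus Xrp1 RNAi.

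Rises of the pooled contrast were ranked among members with a pooled call, a mean of at least 50 and no group at 0 in all its libraries. Of the 10 largest in this ranking, all but 18SrRNA:CR41548 and asRNA:CR45139 were called higher with ecd RNAi than with ecd plus Xrp1 RNAi. Those exceptions ranked first, with pooled log2 changes of 5.96 and 5.85, and were not called between the RNAi groups (adjusted p = 0.64 and 0.0761 by limma). CG44403 and Josd, which the ranking left out, had pooled changes of 7.69 and 5.31. The pickpocket-family channel subunit gene ppk13 (chromosome 2L, 21086790 to 21088751) stood at 1.99, 2.94, 14.1 and 7.72 normalized counts in control libraries, 1299.6, 1389, 1374 and 1421 under ecd RNAi and 61.4, 59.3, 101 and 62.4 under ecd plus Xrp1 RNAi. Its neighbour CG33509 (chromosome 2L, 21084605 to 21086506) stood at 3.98, 2.94, 9.18 and 0.858 normalized counts in control libraries, 698, 796, 818 and 785 under ecd RNAi and 23.4, 25.97, 26.6 and 21.6 under ecd plus Xrp1 RNAi. In both genes the ecd plus Xrp1 RNAi libraries lay between the other groups without overlap, with differences from ecd RNAi of -4.29 ± 0.41 and -4.93 ± 0.39. The dopamine receptor gene Dop2R stood at 4.205, 2.64, 5.89 and 3.65 normalized counts in control libraries, 843, 2582, 3373 and 1689.9 under ecd RNAi and 8.78, 14.4, 13.1 and 20.5 under ecd plus Xrp1 RNAi, and the cytochrome P450 gene Cyp6a20 at 0.996, 1.96, 2.12 and 0.858 normalized counts in control libraries, 186, 244, 169.8 and 287 under ecd RNAi and 24.4, 23.5, 8.19 and 23.98 under ecd plus Xrp1 RNAi. CG8620 had the largest change with ecd RNAi of those described, a log2 change of 9.50 ± 0.29, at 2.02, 0.977, 2.13 and 2.58 normalized counts in control libraries, 2966, 1769.9, 1939 and 1811 under ecd RNAi and 2.93, 4.84, 3.09 and 3.59 under ecd plus Xrp1 RNAi. Its ecd plus Xrp1 RNAi libraries lay just above the highest control, with a change of 0.67 ± 0.29, and far below ecd RNAi. CG15784 had changes of 6.90 ± 0.14 and 0.88 ± 0.14, and CG9521, at 0 in 1 control library, a difference between the RNAi groups of -4.31 ± 0.54.

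Genes with no signal in some control libraries included the antisense RNA asRNA:CR45139, at 0, 21.9, 132 and 3.46 normalized counts in control libraries, 1403, 1351, 1436 and 1717 under ecd RNAi and 268, 143, 357 and 349.7 under ecd plus Xrp1 RNAi, and the 18S ribosomal RNA row 18SrRNA:CR41548, at 0, 28320, 8030.3 and 13447 normalized counts in control libraries, 161110, 89956, 222850 and 111190 under ecd RNAi and 30886, 29298, 64778 and 99971 under ecd plus Xrp1 RNAi. The ribosomal RNA row varied more than 2-fold within every group, and the libraries were depleted of ribosomal RNA. Its pooled call was lost in 14 of the alternatives, among them the removal of any 1 RNAi library. CG44403 and the larval cuticle protein gene Lcp65Ag2 were the only members listed at 0 in all 4 controls. CG44403 stood at 355, 209, 337 and 478 under ecd RNAi and 149, 139.7, 159 and 78.04 under ecd plus Xrp1 RNAi, a difference of -1.38 ± 0.30 (adjusted p = 0.00222 by limma). Lcp65Ag2 stood at 78.8, 71, 128 and 77.5 and at 7.84, 1.62, 7.27 and 1.2. No member was at 0 in all 8 RNAi libraries.

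The falls with the largest difference toward control included an ecdysone-induced gene and serpins. ImpE2, an ecdysone-inducible gene of discs, stood at 77207, 79559, 62754 and 61739 normalized counts in control libraries, 5698, 2899.8, 385 and 4741 under ecd RNAi and 54849, 48005, 38614 and 53952 under ecd plus Xrp1 RNAi. The serpin genes Spn100A and Spn43Aa, whose family inhibits serine proteases, stood at 3934, 4197, 3115 and 2464 normalized counts in control libraries, 282, 92.8, 9.85 and 214 under ecd RNAi and 1597, 1204, 992 and 1359.9 under ecd plus Xrp1 RNAi, and at 6067, 5883, 5117 and 4555 normalized counts in control libraries, 524, 241, 70.01 and 512 under ecd RNAi and 4137, 3426, 2762 and 3896 under ecd plus Xrp1 RNAi. In these genes ecd plus Xrp1 RNAi lay between control and ecd RNAi in every library, with differences from ecd RNAi of 4.37 ± 0.63, 3.84 ± 0.76 and 3.75 ± 0.48. These genes were chosen for a called difference, so no p-value is given for it. Against control their changes with ecd plus Xrp1 RNAi were -0.53 ± 0.63, -1.40 ± 0.76 and -0.61 ± 0.48. None of these was called (adjusted p = 0.652, 0.296 and 0.48 by limma). CG15905 had a difference of 3.76 ± 0.23 and CG6055 of 2.65 ± 0.82, the latter not called without ecd RNAi replicate 1 (adjusted p = 0.0548 by limma).

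In all, 23 members moved away from control when Xrp1 RNAi was added. Of the 13 below, 7 were His2B copies, 6 of them with identical values, and the summed His2B copies, given with the histones, showed no such fall. Taf12L, a testis form of a TFIID subunit, stood at 24.3, 24.4, 24.9 and 21.5 normalized counts in control libraries, 30.96, 39.8, 31.5 and 57.3 under ecd RNAi and 201, 167, 165 and 135 under ecd plus Xrp1 RNAi. Its ecd plus Xrp1 RNAi libraries were all above its ecd RNAi libraries, by 2.07 ± 0.22. Taf12L, NaPi-III, CG5390, Cadps and CG18853 were chosen for a called difference, which is given as a description. The phosphate transporter gene NaPi-III stood at 1480.2, 1311, 1305 and 1511 normalized counts in control libraries, 1929, 2598, 2159 and 1773 under ecd RNAi and 2932, 2886, 2989 and 2636 under ecd plus Xrp1 RNAi, a difference of 0.45 ± 0.10. CG5390 and Cadps, the latter needed for release of dense-core vesicles, had differences of 0.32 ± 0.08 and 0.36 ± 0.12, and that of Cadps was not called without ecd RNAi replicate 1 or 3 or ecd plus Xrp1 RNAi replicate 1 or 2. The calmodulin-binding gene igl, picked after its values were seen, stood at 5.899, 7.02, 10.98 and 11.3 normalized counts in control libraries, 22.7, 23.1, 30.98 and 15.4 under ecd RNAi and 72.02, 73.8, 38.9 and 73.9 under ecd plus Xrp1 RNAi, a difference of 1.44 ± 0.34 that was not called with a replicate block by description number (adjusted p = 0.0585 by limma). Among the genes below, CG18853 stood at 725, 587, 611 and 687 normalized counts in control libraries, 345, 287, 283 and 256 under ecd RNAi and 25.4, 11.3, 36.9 and 10.8 under ecd plus Xrp1 RNAi, a difference of -3.90 ± 0.31.

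Stress signalling was then taken by role. Counts of members in the lists stand beside the 4.12% of all genes above the controls and 3.38% below, and counts called with ecd RNAi beside 22.4% higher and 25.4% lower. Among 12 bZIP and integrated stress response genes, 11 rose with ecd RNAi and 1, Atf3, was a member. None rose with ecd plus Xrp1 RNAi, which in a list of this size is near the 2.29% of all genes called higher there. Atf3, a bZIP partner of Jun, stood at 315, 315, 359 and 389.8 normalized counts in control libraries, 1517, 1868, 2452 and 1591 under ecd RNAi and 396, 469.8, 665 and 625 under ecd plus Xrp1 RNAi. In JAK/STAT signalling 5 of 13 genes were members, all above (4.12% of all genes) and all lower with ecd plus Xrp1 RNAi than with ecd RNAi. The ligand gene upd3 stood at 14.9, 27.5, 24.7 and 26.6 normalized counts in control libraries, 1524, 1549, 1404 and 1445 under ecd RNAi and 38.98, 29.3, 41.8 and 34.8 under ecd plus Xrp1 RNAi. Every ecd plus Xrp1 RNAi library was above every control, yet far below ecd RNAi (difference -5.33 ± 0.19, adjusted p = 5.36e-10 by limma). The feedback inhibitor gene Socs36E had changes of 2.26 ± 0.06 and 0.22 ± 0.06, and the BTB zinc-finger gene chinmo, a target of the pathway in other fly tissues, stood at 588, 539, 617 and 677 normalized counts in control libraries, 13468, 17717, 22348 and 14103 under ecd RNAi and 1047, 1117, 1603 and 1524 under ecd plus Xrp1 RNAi. The remaining members were the phosphatase gene Ptp61F and the zinc-finger gene zfh2.

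Members of the JNK list were 3 of 21, each above, beside 4.12% of all genes. The list itself was split, with 10 genes higher and 6 lower under ecd RNAi, beside 22.4% and 25.4% of all genes. Under ecd plus Xrp1 RNAi 2 were higher and 2 lower, beside 2.29% and 2.10%. Its median log2 changes were 0.16 and 0.05. Ets21C, an ETS transcription factor induced by JNK, stood at 16.8, 31.7, 31.8 and 31.5 normalized counts in control libraries, 2421, 2079, 1925 and 1999 under ecd RNAi and 57.2, 49.3, 119 and 321 under ecd plus Xrp1 RNAi. The phosphatase gene puc, which JNK induces and which switches JNK off, stood at 1226, 1632, 1293 and 1470.1 normalized counts in control libraries, 3239.6, 2956, 2409 and 2920.3 under ecd RNAi and 1689.6, 2092, 2323 and 2762 under ecd plus Xrp1 RNAi. With ecd plus Xrp1 RNAi puc overlapped its ecd RNAi values, and the difference of -0.39 ± 0.14 (adjusted p = 0.0357 by limma) was no longer called without ecd RNAi replicate 1, 2 or 4 or ecd plus Xrp1 RNAi replicate 1 or 2, with adjusted p of 0.0678 to 0.11. The third was the serine protease homologue gene scaf. Of 18 DNA damage genes 4 were above (4.12% of all genes), Gadd45, Ku80, Irbp and Rad9, and the checkpoint kinase gene grp was below. Ku80 and Irbp, which form the Ku dimer that joins broken ends, had changes of 2.13 ± 0.07 and 0.49 ± 0.07, and of 2.09 ± 0.09 and 0.19 ± 0.09. Gadd45, a stress sensor, stood at 465, 472, 495 and 584 normalized counts in control libraries, 3751, 1991, 1804 and 1792 under ecd RNAi and 695, 711, 724 and 953 under ecd plus Xrp1 RNAi. Rel, the NF-κB factor of the Imd pathway, was the only member among 17 Toll and Imd genes, at 451, 431, 472 and 493 normalized counts in control libraries, 978, 909, 967 and 1064 under ecd RNAi and 738, 665, 672 and 901 under ecd plus Xrp1 RNAi. No apoptosis gene of 13 and no heat shock protein gene of 18 was a member, which in lists of this size is near the 7.50% over all genes.

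In metabolism, 5 of 27 glutathione S-transferase genes were members, beside 7.50% of all genes, and they split. GstE1 stood at 112, 106, 92.2 and 122 normalized counts in control libraries, 1833, 1825, 1557 and 1399 under ecd RNAi and 283, 299.6, 352 and 273 under ecd plus Xrp1 RNAi. It was above the controls in all RNAi libraries, while GstE11, GstE12, GstE13 and GstS1 were below. GstE12 had changes of -0.31 ± 0.06 and -0.51 ± 0.06; the difference between them was not called without ecd RNAi replicate 1 or 3 or ecd plus Xrp1 RNAi replicate 1 or 2. Of 15 genes of serine, one-carbon and asparagine synthesis 4 were members, all below (3.38% of all genes), and the list had medians of -0.33 with ecd RNAi and -0.31 with ecd plus Xrp1 RNAi. The glutamine synthetase gene Gs1 stood at 222, 197, 387 and 175 normalized counts in control libraries, 82.8, 77.9, 64.3 and 93.8 under ecd RNAi and 149.5, 135, 110 and 113 under ecd plus Xrp1 RNAi. CG11899, for phosphoserine aminotransferase, had changes of -1.43 ± 0.17 and -0.31 ± 0.17, and pug, for a folate-cycle enzyme, of -0.32 ± 0.09 and -0.69 ± 0.09. The difference for Gs1, 0.67 ± 0.22, was not called without ecd RNAi replicate 3 or ecd plus Xrp1 RNAi replicate 1 or 2, and the remaining member was the cystathionine β-synthase gene Cbs.

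Of 35 oxidative phosphorylation genes 31 fell with ecd RNAi, beside 25.4% of all genes, and 1 with ecd plus Xrp1 RNAi, near the 2.10% of all genes. Its members were ND-30 and ND-49, subunits of complex I, with changes of -0.75 ± 0.08 and -0.39 ± 0.08, and of -0.64 ± 0.07 and -0.25 ± 0.07. The cytosolic malate dehydrogenase gene Mdh1 was the only citric acid cycle member of 15, at 2477, 2388, 2346 and 2377 normalized counts in control libraries, 1909, 1658, 1689 and 1666 under ecd RNAi and 2004, 1818, 1871 and 1773 under ecd plus Xrp1 RNAi. Its RNAi groups overlapped and the difference of 0.11 ± 0.06 was not called (adjusted p = 0.134 by limma). Sec61alpha, the channel of the endoplasmic reticulum translocon, was the only member of 24 translocation and secretion genes, with changes of -1.32 ± 0.11 and -0.25 ± 0.11. None of 80 cytosolic and none of 41 mitochondrial ribosomal protein genes was a member, beside 7.50% of all genes.

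Splicing genes were taken by particle, with their counts beside the 7.50% of all genes that were members. Of 9 U5 and tri-snRNP genes 2 were above, Prp31 and Prp6, which bridge U4/U6 to U5. Prp6 stood at 1816, 1868, 1735 and 1603 normalized counts in control libraries, 2657, 2723, 2345 and 2349 under ecd RNAi and 2226, 2236, 2113 and 2091 under ecd plus Xrp1 RNAi, and Prp31 had changes of 1.04 ± 0.07 and 0.19 ± 0.07. Of 24 genes of U1, U2, the Prp19 complex and the step factors, fand was above with changes of 0.29 ± 0.05 and 0.13 ± 0.05, and Sf3b3, of the U2 branch-site complex, was below at 18191, 18123, 17084 and 16970 normalized counts in control libraries, 11250, 11013, 10020 and 9928 under ecd RNAi and 14947, 14218, 14122 and 14577 under ecd plus Xrp1 RNAi. The call of fand was lost with libraries scaled to equal sums (adjusted p = 0.533 by limma). None of the Sm and LSm genes (9) or SR and hnRNP genes (20) was a member, while 8 and 14 of them fell with ecd RNAi (25.4% of all genes). The exon junction gene tsu was below, with changes of -0.76 ± 0.07 and -0.23 ± 0.07. Nop56, a core protein of box C/D snoRNA particles, had changes of -0.83 ± 0.07 and -0.21 ± 0.07. In the cell cycle and DNA replication list the members were Orc1 and tos, a DNA exonuclease gene, which stood at 52.7, 33.3, 0 and 15.4 normalized counts in control libraries, 91.3, 138, 116 and 87.9 under ecd RNAi and 157, 128, 182 and 170.3 under ecd plus Xrp1 RNAi.

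Members were also found among patterning genes of the disc. Dad, an inhibitor and target of Dpp signalling, stood at 3380.2, 3564, 3682 and 3524 normalized counts in control libraries, 4629, 5289, 5276 and 4574 under ecd RNAi and 4009, 4085, 4096 and 4715 under ecd plus Xrp1 RNAi. The target gene salm had changes of 0.35 ± 0.08 and 0.21 ± 0.08, and its pooled call was lost without the 4 fat-body-rich libraries (adjusted p = 0.0922 by limma) and with equal sums (0.15). With dally, a Dpp co-receptor, these made 3 of 14 Dpp pathway genes, all above, beside 4.12% of all genes. In the Hedgehog and posterior list, en, which defines the posterior compartment, had changes of -0.31 ± 0.07 and -0.23 ± 0.07, and kn, a target in the central wing, of -1.07 ± 0.10 and -0.39 ± 0.10. The proneural gene sens stood at 213, 206, 238 and 181 normalized counts in control libraries, 35.7, 18.1, 18.5 and 19.7 under ecd RNAi and 152, 127, 148 and 167 under ecd plus Xrp1 RNAi. It was below control in every RNAi library, and the difference of 2.69 ± 0.21 placed ecd plus Xrp1 RNAi nearer to control. The TOR inhibitor gene chrb, the only member of 11 growth delay and insulin genes, had changes of -0.64 ± 0.10 and -0.32 ± 0.10.

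Members among the genes of small RNAs that act on other RNAs all lay above the controls. Of 79 snoRNA and scaRNA genes, which guide modification of ribosomal and small nuclear RNA, 12 were above and none below, beside the 4.12% above and 3.38% below over all genes. Their log2 changes ran from 0.78 to 3.28 under ecd RNAi and from 0.31 to 1.76 under ecd plus Xrp1 RNAi, and 10 of the 12 were called lower with Xrp1 RNAi added. Over the whole list the medians were 1.2 and 0.41, and 0.99 and 0.29 with equal sums. Of 28 snRNA genes 3 were above and none below, with list medians of 0.79 and 0.53. The U2 copy snRNA:U2:14B stood at 1096, 1197, 999 and 1039 normalized counts in control libraries, 1762, 2715, 3023 and 4961 under ecd RNAi and 4968, 5459, 3754 and 3757 under ecd plus Xrp1 RNAi, and snRNA:U4atac, of the minor spliceosome, at 61.7, 86, 109 and 57.5 normalized counts in control libraries, 194, 232, 270.3 and 419.6 under ecd RNAi and 251, 245, 149 and 187 under ecd plus Xrp1 RNAi. The U1 copy snRNA:U1:95Cc had changes of 0.92 ± 0.25 and 1.22 ± 0.25, and none of these 3 was called between the RNAi groups. Near-identical copies make values per copy uncertain. Summed over 6 U2 copies the libraries ran from 50066 to 76172 in control, 80961 to 170200 under ecd RNAi and 55770 to 99630 under ecd plus Xrp1 RNAi, so the sum overlapped the controls with ecd plus Xrp1 RNAi. Over 5 U1 copies they ran from 14120 to 20605, 26855 to 57576 and 19816 to 33773. With ecd plus Xrp1 RNAi the U1 sum also overlapped the controls. The copy snRNA:U2:34ABa ran from 14.8 to 25.1, from 22.4 to 77.2 and from 14529 to 22690.

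The same limit applied to histones. Of 101 replication-dependent histone genes 19 were members, all below (3.38% of all genes), and 18 of the 19 have values identical to those of another gene. His2B:CG33890, identical to 5 other members, stood at 1387, 2162, 1289 and 1885 normalized counts in control libraries, 471, 711, 440.3 and 509.6 under ecd RNAi and 30.3, 28.1, 52.8 and 153 under ecd plus Xrp1 RNAi. His2B:CG33882 stood at 2290, 3008, 2001 and 2562 normalized counts in control libraries, 720.3, 849, 1142 and 563 under ecd RNAi and 0.976, 268, 457 and 7.17 under ecd plus Xrp1 RNAi. At both copies ecd plus Xrp1 RNAi was below ecd RNAi, whereas the sum over 23 His2B copies ran from 76777 to 94488 in control, 29520 to 48531 under ecd RNAi and 71183 to 92926 under ecd plus Xrp1 RNAi. The fall of single copies with ecd plus Xrp1 RNAi was not seen in their sum. Members below also included His1 and His3 copies. Summed His3 copies ran from 52662 to 67062 in control, 18171 to 30963 under ecd RNAi and 52127 to 66933 under ecd plus Xrp1 RNAi. Summed His1 copies ran from 48690 to 57845, 19092 to 41754 and 59673 to 79510, so with ecd plus Xrp1 RNAi that sum lay above the controls. The call of His2B:CG33882 between the RNAi groups was lost without ecd plus Xrp1 RNAi replicate 4 (adjusted p = 0.0509 by limma). It was also lost without the fat-body-rich libraries (0.109) and with a weight per library (0.0795). The pooled call of this copy was lost in 5 alternatives, and with ecd RNAi against control it was not called (adjusted p = 0.35 by limma).

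**Figure D3:**
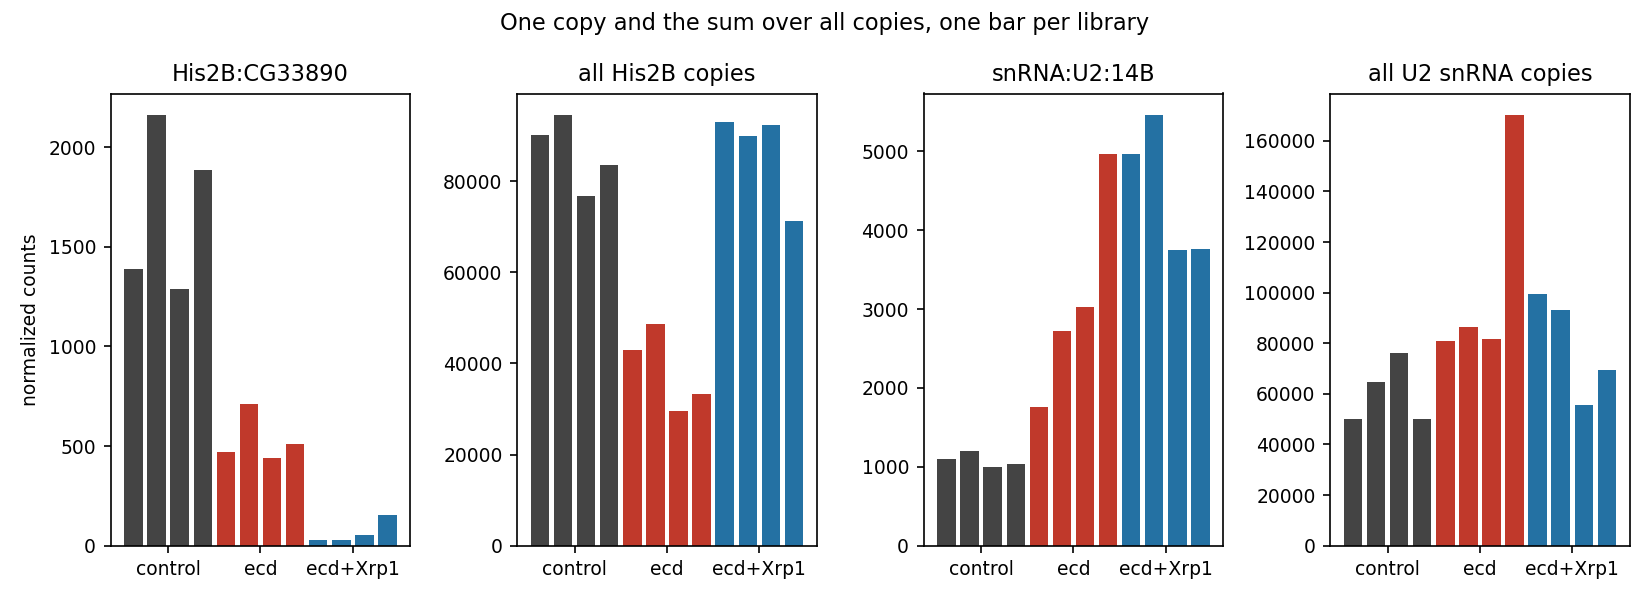
Normalized counts of single copies and of the sum over all copies of His2B and of U2 snRNA, one bar per library, with group colours as labelled on the horizontal axis and axes starting at 0. The His2B copy is lowest with ecd plus Xrp1 RNAi while the sum there, 71183 to 92926, lies near the controls.

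Intron retention was read from the authors' deposited table, which gives the mean retention ratio of each group for 17817 introns. Median ratios over the introns of members above were 0.0779 in control, 0.0828 with ecd RNAi and 0.0846 with ecd plus Xrp1 RNAi, and over those of members below 0.0617, 0.0805 and 0.0647. Over all introns they were 0.0702, 0.0808 and 0.0789. The authors' deposited table calls 121 introns (0.679%) as higher in both RNAi groups, 3 of 915 introns of members above (0.328%) and 2 of 560 of members below (0.357%). They lie in Smurf, CG13896 and CG9467, which are above, and in GstE11 and ND-30, which are below. In ND-30 the ratio in the authors' deposited table was 0.0588 in control, 0.17 with ecd RNAi and 0.16 with ecd plus Xrp1 RNAi for the intron at chromosome 3L, 3159349 to 3159408. In GstE11 it was 0.0969, 0.235 and 0.222.

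Other features of the members were described without a test. The median span on the genome was 4150 bases for genes above, 2663 for genes below and 2671 for all genes, and the median number of introns was 3 in each set. Protein-coding genes were 371 of 419 above, 322 of 344 below and 9350 of all 10179. The X chromosome held 13.1% of genes above, 10.5% of genes below and 16.4% of all. In the interval of chromosome 2L from 21 to 22 Mb, 23 of 169 tested genes were members, 19 of them histone genes. At the limits of the rule, dally was just inside above and CG5281 just outside, with ratios of the nearest RNAi to the nearest control value of 1.0004 and 0.99962. Requiring a gap of at least 1.2-fold left 92 genes above and 69 below.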

How the data were processed

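Groups and replicate numbers come from the titles of the samples. The values used are a signal, counts per gene that the authors normalized with DESeq2 before they deposited them, per the labels. Tools in the submitters' processing notes, given without order or settings, are FastQC, kallisto 0.46.1, cutadapt 3.5 and the authors' DESeq2 1.34.0, with build BDGP6. Kits were stranded per the labels' protocols, the use of strand in counting is not stated in them, so values of overlapping opposite-strand genes and of near-identical copies are uncertain. The labels disagree on read layout. Of low values, 37.4% to 74.8% per library came out as whole reads within 0.03, so no count model was fitted and depth is unknown; precision is that of the spread between libraries.

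Of 23932 rows 17869 are genes, of which 17790 matched a symbol. Genes with a mean of at least 10 entered (10179). Log2(value + 1), which understates changes of low genes, was fitted with limma 3.58.1 in R 4.3.3 with 1 term per group over all 12 libraries, trended eBayes and two-sided tests, adjusted by Benjamini-Hochberg over all genes with a threshold of 0.05. Adjusted p-values are those of limma unless the authors are named. The code was tested on simulated data. The members, the 48 gene lists (51 of 1034 symbols unmatched) and the tests were chosen with earlier results of these data known. The genes named are from a fixed set of 8 (ecd, Xrp1, Irbp18, Ilp8, upd3, Arc1, p53 and nub), members at 0 in a whole group, and up to 2 rises and 2 falls per list. Others are the largest pooled rises and falls (10 each), like-sized rises and falls (6 each) and the largest called differences toward and away from control (4 each per direction). These were ranked among members with a pooled call, a mean of at least 50 and no group at 0 in all its libraries. Further genes were added after their values were seen.

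The authors' deposited comparison table holds log2 fold changes, a score (the test statistic) and raw and adjusted p-values, which the authors took from DESeq2 per the file headers. Their intron table gives retention ratios as a fraction from 0 to 1, as group means, with log2 fold changes and p-values, per the file headers; its 12 columns per sample matched no label and were not used. Positions are 1-based on BDGP6. Promoter motifs were planned and not analysed here.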

Additional observations from a re-analysis of the deposited data

Results flagged for a closer look

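The effect of RNAi against control differed between the RNAi groups, by a limma test of the difference itself adjusted over all genes, for these described genes. Each value is a log2 difference, ecd plus Xrp1 RNAi minus ecd RNAi. Members named for the largest differences toward and away from control were chosen on this test, so for them it is a description. Among genes that are not members it was -2.05 for Xrp1, -1.76 for Irbp18, -8.12 for Ilp8, -6.89 for Arc1 and -1.44 for p53. Of members above the controls, the lower values with ecd plus Xrp1 RNAi were -8.83 for CG8620, -7.01 for Dop2R, -6.02 for CG15784, -5.33 for upd3, -4.93 for CG33509, -4.35 for Ets21C, -4.31 for CG9521, -4.29 for ppk13 and -4.27 for Lcp65Ag2. CG8620 and Lcp65Ag2 passed the filter on the mean only through ecd RNAi, so their values are a description. The next were -3.67 for chinmo, -3.49 for Cyp6a20, -2.45 for GstE1, -2.04 for Socs36E, -1.90 for Irbp, -1.79 for Atf3, -1.64 for Ku80, -1.54 for Gadd45 and -1.38 for CG44403. Smaller ones were -1.19 for AstA-R1, -0.85 for Prp31, -0.41 for Rel, -0.39 for puc, -0.23 for Dad, -0.21 for Prp6 and -0.16 for fand. With equal sums the last 4 were not called (adjusted p = 0.0598, 0.0771, 0.135 and 0.268 by limma), nor was GstE12 (0.175). Without the 4 fat-body-rich libraries puc, Dad, GstE12 and His2B:CG33882 were not called (adjusted p = 0.0544, 0.0509, 0.0646 and 0.109 by limma). The higher ones among members above were 2.07 for Taf12L, 0.45 for NaPi-III, 0.36 for Cadps, 0.32 for CG5390 and 1.44 for igl. Of members below the controls, the higher values with ecd plus Xrp1 RNAi were 4.37 for ImpE2, 3.84 for Spn100A, 3.76 for CG15905, 3.75 for Spn43Aa, 2.69 for sens, 2.65 for CG6055, 1.12 for CG11899, 1.07 for Sec61alpha and 0.68 for kn. Those that followed were 0.67 for Gs1, 0.64 for GstE11, 0.62 for Nop56, 0.53 for tsu, 0.46 for Sf3b3, 0.39 for ND-49, 0.36 for ND-30 and 0.32 for chrb. The lower ones among members below were -4.40 for His2B:CG33882, -3.32 for His2B:CG33890, -3.90 for CG18853, -0.37 for pug and -0.20 for GstE12.

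In groups of 4, 1 library lay farther from the others than Dixon's 95% limit allows, in these cases, given as that library's normalized counts. Chance alone flags about 1 in 20 groups. In control they were 132 for asRNA:CR45139, 16.8 for Ets21C, 21.5 for Taf12L and 6.86 for Josd. With ecd RNAi they were 2966 for CG8620, 101 for CG34207, 128 for Lcp65Ag2, 3751 for Gadd45, 771 for CG11899, 985 for pug, 35.7 for sens, 1279 for snRNA:U1:95Cc, 721 for tsu, 1909 for Mdh1 and 8.66 for unc80. With ecd plus Xrp1 RNAi they were 101 for ppk13, 8.19 for Cyp6a20, 22472 for lncRNA:CR40469, 953 for Gadd45, 2613 for ND-49, 4173 for salm, 4715 for Dad, 3539 for chrb and 38.9 for igl.

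Rows that are not genes, outside the comparisons of genes, took a mean of 0.483% of the signal in control, 6.65% with ecd RNAi and 0.613% with ecd plus Xrp1 RNAi, both above the controls. Of 700 such rows with a mean of at least 10, all 8 RNAi values were above every control in 93 and below in 40.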

How the results depend on the processing

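Over 26 alternatives, 142 results gave 3510 values on the same side of the threshold or within 1.5 times, 107 that were no longer called, 8 that were newly called and none that reversed. With 1 term for all 8 RNAi libraries the pooled contrast called 146 genes higher and 106 lower, since the difference between the RNAi groups then adds to the spread, and with a call required in each group 173 and 126. Scaling to equal sums gave 899 higher and 3662 lower, 149 members above and 1381 below, and 1025 members that differed between the RNAi groups. Quantile normalization gave 413 members above and 552 below, and a gap of at least 1.2-fold left 92 above and 69 below. Of the 763 members, 493 were kept with equal sums and 586 with quantile normalization. Without the 4 fat-body-rich libraries there were 946 members above and 1269 below, with 1049 that differed between the RNAi groups, a rule that compares fewer values. Leaving out 1 library at a time gave 1355 to 1796 genes higher, 1244 to 1759 lower, 420 to 590 members above, 349 to 493 below and 466 to 630 that differed between the RNAi groups. Apart from the changes that follow from fewer values or terms, the cause was not tested.

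Title numbers are shared across groups. Deviations of same-numbered libraries correlated at 0.235 to 0.559 between control and ecd RNAi, at -0.332 to -0.131 between control and ecd plus Xrp1 RNAi and at -0.347 to -0.169 between the RNAi groups. Control and ecd RNAi libraries with other numbers correlated as highly, at 0.474 to 0.572, within replicates 1 and 2 and within the fat-body-rich replicates 3 and 4, so this structure does not follow the number. Libraries with the same description number correlated at -0.266 to 0.559 (7 pairs). Neither numbering pairs the libraries across all groups. A replicate block by title number gave 1673 higher, 1799 lower and 478 members that differed, and for ecd RNAi against control 2210 higher and 2655 lower. A block by description number gave 1218, 1315 and 374, and for ecd plus Xrp1 RNAi against control 85 higher and 65 lower in place of 233 and 214. Under the latter block the differences between the RNAi groups of puc, Gs1, Cadps, GstE12, CG6055, fand, Dad, chrb and igl were not called (adjusted p = 0.0559 to 0.296 by limma), and under the former those of Gs1 and Cadps (0.0505 and 0.0514). Values are normalized and depth is unknown, so differences in low genes are limited by the spread between 4 libraries.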
